A study of Mus musculus with 6 samples.

Results

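The caspases and death receptors described here are 8 mouse genes, the initiator caspases Casp2, Casp8 and Casp9, the executioner caspase Casp6, the receptors Fas, Tnfrsf1a and Tnfrsf10b, and the adaptor Fadd. They were taken by name from the platform annotation, and every probe set annotated to exactly 1 of them was used. This gave 13 probe sets, out of 34945 that the annotation pairs with a single gene, for 8 of 18193 genes. Expression had been measured on 6 single-colour Affymetrix arrays of 393P, a cell line grown from a primary lung tumour of a mouse with the alleles p53R172H∆g/+ and K-rasLA1/+. In both groups the cells carried a vector. The 3 control arrays are of cells with a scrambled control (393P-scr) and the other 3 are of cells with a short hairpin RNA (shRNA) against MKK4 (393P-shZ). MKK4, encoded by Map2k4, is a kinase that activates JNK and p38, and the comparison asks which transcripts differ when it is depleted. The series design names 1 shRNA construct, its delivery is given once as retroviral infection and once as lipid transfection, and whether each group is a pool or a clone was not given in the sources used here. Arrays of a group are cultures of the same cells, and p-values therefore reflect variation among cultures and not among separately made lines.

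Caspases are proteases that dismantle a cell during apoptosis. Ligands of the TNF family bind death receptors such as Fas, TNF receptor 1 (Tnfrsf1a) and the TRAIL receptor (Tnfrsf10b), and the adaptor FADD then brings caspase-8 to the receptor complex. Caspase-9 is activated separately, on the apoptosome that forms when mitochondria release cytochrome c, and caspase-2 in a complex with PIDD and CRADD. Caspase-8 and caspase-9 cleave executioner caspases. Caspase-6 is classed as an executioner and is known for cutting nuclear lamins. JNK signalling is one of the outputs of TNF receptor complexes, and Fas and Tnfrsf10b are textbook target genes of p53.

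The promoter windows of 2 members are shown, Casp6 because it was the member whose level differed between the groups, and Fas because it was the 1 member whose window held a binding motif of AP-1, the transcription factor family that JNK acts on. Both are from RefSeq on GRCm38.p6, run from 250 bases before the gene's start to 50 after it, and are read 5′ to 3′ on the gene's strand; 7 of the 8 members had such an entry. The Casp6 window is chr3:129901165-129901464 and the Fas window chr19:34290409-34290708, both on the plus strand. Capitals mark the AP-1 motif TGANTCA and the GC box GGGCGG, each searched on both strands.

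Casp6 promoter: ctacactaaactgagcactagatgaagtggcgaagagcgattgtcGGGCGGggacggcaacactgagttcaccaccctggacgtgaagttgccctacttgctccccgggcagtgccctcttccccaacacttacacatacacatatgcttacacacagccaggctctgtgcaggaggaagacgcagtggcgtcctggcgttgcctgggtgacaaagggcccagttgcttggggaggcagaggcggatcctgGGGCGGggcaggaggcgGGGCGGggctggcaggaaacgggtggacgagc
Fas promoter: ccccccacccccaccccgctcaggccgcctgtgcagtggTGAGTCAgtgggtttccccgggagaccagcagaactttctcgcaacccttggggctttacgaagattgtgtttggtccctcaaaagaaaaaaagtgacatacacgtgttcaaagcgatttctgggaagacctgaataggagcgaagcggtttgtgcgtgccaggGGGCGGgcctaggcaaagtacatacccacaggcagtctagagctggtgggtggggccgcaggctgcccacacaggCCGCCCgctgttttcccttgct

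The AP-1 motif was found in 1 of the 7 member windows, that of Fas at bases 40 to 46, and in 7.81% of 32851 windows of this length. The CRE motif TGACGTCA, searched likewise, was in 0 of the 7 and in 1.79% of all windows. The GC box was in 5 of the 7, those of Casp2, Casp6, Casp9, Fadd and Fas, and in 35.7% of all. In the Casp6 window it stood 3 times, at bases 46 to 51, 252 to 257 and 269 to 274. A match is a run of letters and not a measured binding site.

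The knockdown, the markers and the arrays as a whole set the frame for these genes. Map2k4, read on its brighter probe set, was 2.31-fold lower on the shRNA arrays (log2 change -1.21, limma adjusted p = 0.000127). The exact two-sided permutation p was 0.1, the smallest possible for 3 against 3. Median intensity was 92 to 95.76 units per array, and the 6 arrays correlated at r = 0.990 to 0.995 across probe sets. Probe sets for a bacterial control transcript, trpnX, reached up to 39.47 units, and levels at or below that are called background here. The array medians lay above that level, as did most markers of other cell types. A reading above background therefore does not by itself show that a gene is expressed. Of the cell type markers, the 6 epithelial genes (Epcam, Cdh1, Krt8, Krt18, Krt19 and Cldn4) lay between 3615 and 14496 units. By limma, Epcam (log2 change -0.35, adjusted p = 0.000874) and Cdh1 (-0.14, 0.0182) were lower with the shRNA. Krt19 was higher (0.23, 0.0268), and Krt8, Krt18 and Cldn4 did not pass. Their sum was 44070.5 to 44521.9 units in controls and 43717 to 44755.1 with the shRNA over all 6 epithelial genes. Of 4 lung epithelial markers, the surfactant genes Sftpb (241 to 291 units) and Sftpc (53.9 to 84.3) read above background, and the lineage factor gene Nkx2-1 and the club cell gene Scgb1a1 did not, at 3.36 and 14.7 units or less. Of 14 markers of other cell types, 10 read above background on all arrays: 3 of 5 for leukocytes, with Adgre1 at 215 to 254 units, 3 of 4 for endothelium, with Kdr at up to 455.73, and 4 of 5 for fibroblasts, with Col1a2 at 185 to 208. Cd3e of T cells, Pdgfrb of fibroblasts and Pecam1 of endothelium stayed within background, at 4.06, 11.7 and 36.4 units or less, and Ptprc of leukocytes lay on both sides of it (28.5 to 48.75). Summed over each list, the markers of leukocytes came to 514 to 529 units in controls and 480.4 to 535 with the shRNA, those of endothelium to 542 to 678 and 491 to 619, and those of fibroblasts to 405 to 438 and 371 to 441. Their part in the results was not tested.

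Little change was detected among the caspase and death receptor probe sets when MKK4 was depleted. For Fas, which lay within background, and Tnfrsf10b, whose intervals were wide, this does not show that the transcript stayed the same. Of the 13 probe sets, 1 passed the test, a probe set of Casp6 that was 1.17-fold lower with the shRNA. In the same limma fit over 45037 probe sets, 2868, or 6.37%, passed an adjusted p of 0.05. With 1 probe set per gene, the brightest, 1 of the 8 genes passed, again Casp6, against 2139 of 18193 genes, or 11.8%. Neither share stands far from the background of its fit: 1 pass among 13 or among 8 is about what genes at large gave. The median log2 change was -0.02 over the 13 probe sets and -0.01 over all, and the median size, without sign, was 0.04 against 0.10. Log2 changes are of intensity plus a pseudocount of 16, shRNA minus control, which understates changes of dim genes, and intervals given below are 95% intervals from limma for single probe sets, not adjusted for their number.

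**Figure D1:**
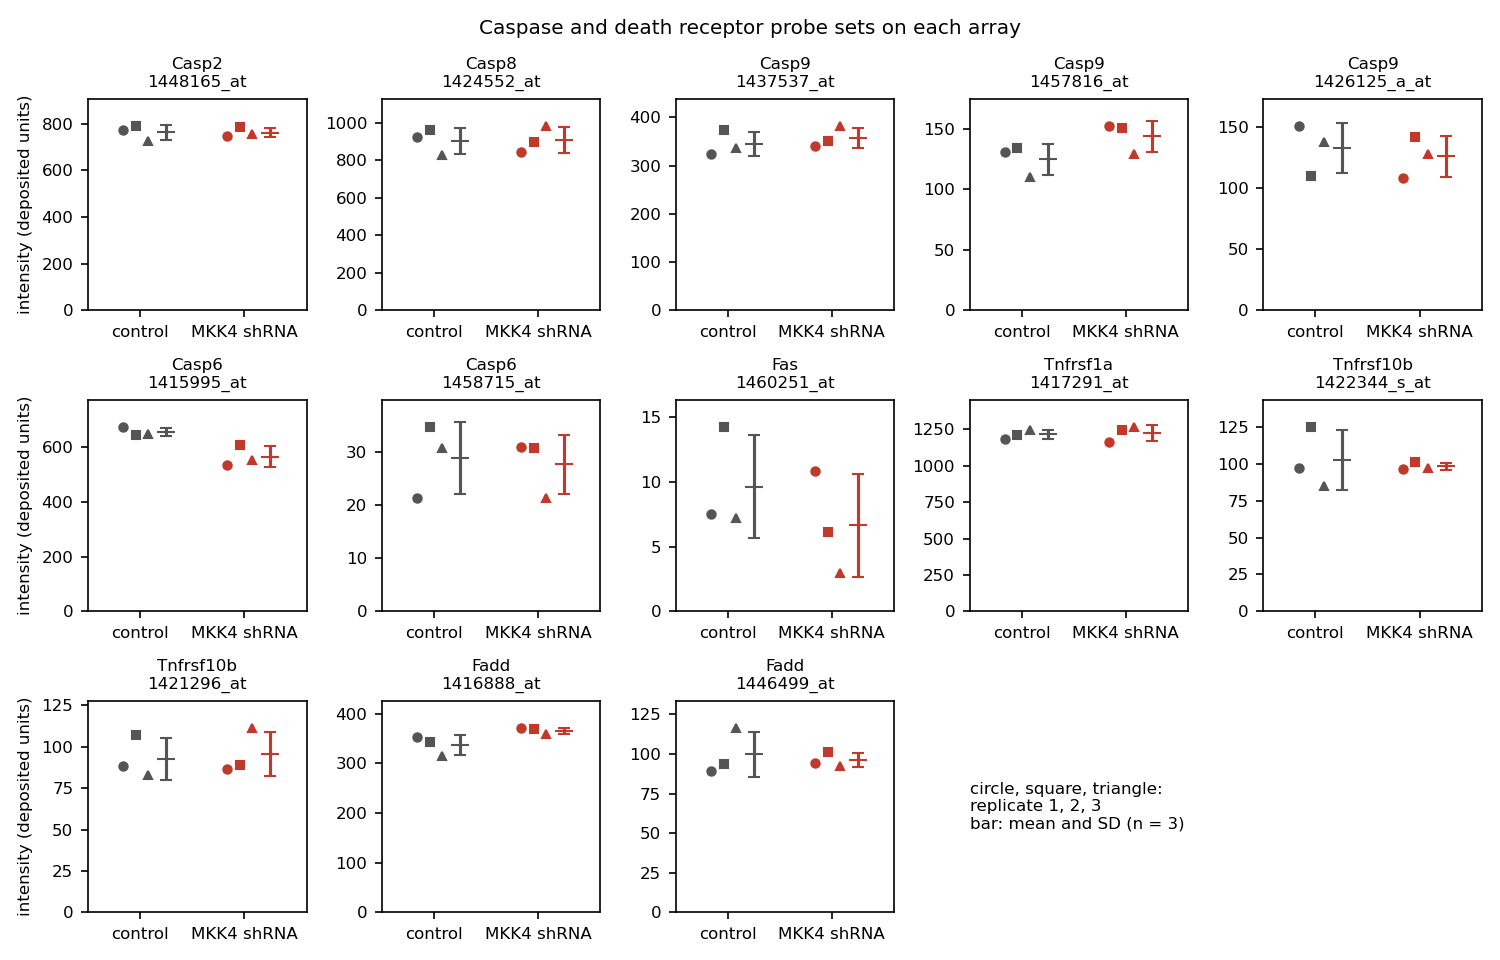
Intensity of each of the 13 probe sets (vertical axes, deposited units, each starting at 0) on the 3 control arrays (grey) and 3 MKK4 shRNA arrays (red), with replicates 1 to 3 as circle, square and triangle and the mean with SD beside them. The 2 groups are apart for Casp6 on 1415995_at and for Fadd on 1416888_at, and they overlap on the other 11 probe sets.

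Casp6, the executioner caspase, was lower on every shRNA array by its brighter probe set, 1415995_at. The control arrays gave 671, 642.53 and 648 units and the shRNA arrays 534, 607 and 552. The groups did not overlap, and the gap was narrowest between control replicate 2 and shRNA replicate 2, at 642.53 and 607 units. The means were 654 ± 15.1 and 564 ± 37.9 units (SD, n = 3). The log2 change was -0.23, its SE 0.042, its interval -0.33 to -0.13 and its limma adjusted p 0.0207. In the fit with 1 probe set per gene the same change had an adjusted p of 0.0138. The other Casp6 probe set, 1458715_at, stayed between 21.3 and 34.7 units on all arrays, within background, and its log2 change of -0.03 (interval -0.39 to 0.33) shows nothing about the transcript. In RNA of whole cultures, fewer cells expressing a gene and less RNA per cell cannot be told apart.

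The Casp6 fall kept its direction but not always its call. Across 14 other settings of the fit over probe sets the log2 change ran from -0.25 to -0.21 and the adjusted p from 0.0106 to 0.111, and the call held in 5 of the 14. Left as deposited, without further normalization, the value was -0.21 (0.111). Of the 6 fits that each left out 1 array, the call held without shRNA replicate 2 (0.0486) and was lost without control replicate 1 (0.0708), 2 (0.0621) or 3 (0.0802) and without shRNA replicate 1 (0.0601) or 3 (0.0792). With 1 probe set per gene it was lost without control replicate 3 or shRNA replicate 3 (0.0548 each) and held in the other 4. With both Casp6 probe sets averaged the log2 change was -0.13 (0.433).

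**Figure D2:**
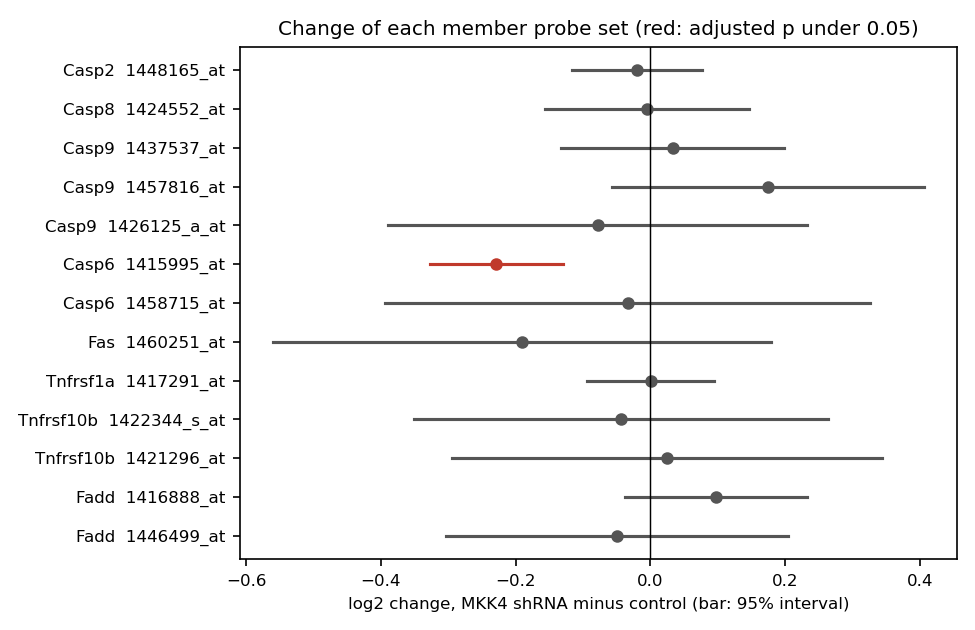
Log2 change of each of the 13 probe sets (horizontal axis, MKK4 shRNA minus control, of intensity plus 16), with its 95% interval as a bar. Casp6 on 1415995_at, in red, is at -0.23 and is the 1 that passed an adjusted p of 0.05, and the intervals of the other 12 include 0.

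The initiator caspases were measured above background on all 5 of their probe sets, and none of these passed the test. The intervals were narrower for Casp2, Casp8 and the brightest probe set of Casp9 than for the 2 dimmer ones of Casp9. Casp8, the initiator that death receptors recruit, read 923, 961 and 828 units on the control arrays and 844, 897 and 981 on the shRNA arrays. The highest and the lowest of these 6 values were shRNA replicate 3 and control replicate 3, so the groups overlapped over nearly their whole range. The log2 change was -0.0045, with an interval of -0.16 to 0.15 (limma adjusted p = 0.986).

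Casp2, which acts with PIDD and CRADD, varied least among the initiators. It read 773, 788 and 726 units with the control vector and 746, 785 and 754 with the shRNA. The means of 762 ± 32.3 and 761 ± 20.4 units (SD, n = 3) differed by a log2 change of -0.02, with an interval of -0.12 to 0.08 (limma adjusted p = 0.865). A change of the size seen for Casp6 lies outside this interval.

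Casp9, the caspase of the apoptosome, has 3 probe sets, which did not move 1 way. On the brightest, 1437537_at, the control arrays read 325, 374 and 337 units and the shRNA arrays 340, 352 and 381, a log2 change of 0.03 (interval -0.13 to 0.20; adjusted p = 0.868). The probe set 1457816_at went from 125 ± 12.7 to 144 ± 12.8 units (SD, n = 3), and shRNA replicates 1 and 2, at 152 and 150.4, lay above all 3 controls while replicate 3, at 129, did not. Its log2 change of 0.17 did not pass (interval -0.06 to 0.41; adjusted p = 0.425). The third, 1426125_a_at, gave -0.08 (interval -0.39 to 0.23; adjusted p = 0.831), and its suffix marks probes that can match several transcripts of the gene.

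The receptors ranged from a clear signal to none above background. Tnfrsf1a, the gene of TNF receptor 1, read 1186, 1208 and 1248 units with the control vector and 1165, 1248 and 1262 with the shRNA. The values of the 2 groups interleave, and the log2 change was 0.0003, with an interval of -0.09 to 0.09 (limma adjusted p = 1). This was the narrowest interval among the 13 probe sets.

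Tnfrsf10b, the TRAIL receptor gene of the mouse, lay between 82.8 and 124 units on both of its probe sets. The suffix of the brighter, 1422344_s_at, marks probes that can match other genes. On 1422344_s_at the control arrays read 97.2, 124 and 84.7 units and the shRNA arrays 96.3, 101 and 96.8. Control replicate 2 was the highest and control replicate 3 the lowest of the 6, so the spread lay within the control group. The log2 change was -0.04 (interval -0.35 to 0.26; adjusted p = 0.912). On 1421296_at the means were 92.9 ± 12.7 and 95.5 ± 13.4 units (SD, n = 3), and the log2 change was 0.02 (interval -0.29 to 0.34; adjusted p = 0.955).

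Fas, the receptor of Fas ligand, gave no signal above background on its 1 probe set. The control arrays read 7.50, 14.2 and 7.19 units and the shRNA arrays 10.8, 6.14 and 2.96, all below the 39.47 units that trpnX reached. A log2 change of -0.19 was fitted (interval -0.56 to 0.18; adjusted p = 0.612), and at this level it says little about the transcript in either group. No fold is given for it.

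Fadd, the adaptor between receptor and caspase-8, had groups that lay apart on its brighter probe set without passing the test. On 1416888_at the control arrays read 354, 344 and 315 units and the shRNA arrays 370.2, 369 and 359. The groups did not overlap, by a margin of 359 against 354 units, but the log2 change of 0.10 did not pass (interval -0.04 to 0.23; limma adjusted p = 0.449). Fadd and Casp6 made up 2 of 13 probe sets whose groups did not overlap as deposited, and 21.2% of all probe sets did the same. The dimmer Fadd probe set, 1446499_at, went from 99.7 ± 14.3 to 96.0 ± 4.39 units (SD, n = 3), and the log2 change was -0.05 (adjusted p = 0.874).

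The precision differed between members. The residual SD on the log2 scale was 0.037 for Casp6 (1415995_at), 0.0403 for Casp2 and 0.0464 for Tnfrsf1a. It was 0.175 and 0.183 for the probe sets of Tnfrsf10b and 0.188 for 1426125_a_at of Casp9. The median over the 13 probe sets was 0.119, against 0.121 over all probe sets. With the brightest probe set of each gene it was 0.0773 over the 8 genes, against 0.1 over all genes. A fall the size of that in Casp6 lay inside the intervals of Tnfrsf10b, 1426125_a_at of Casp9 and 1446499_at of Fadd, so it is not excluded there. The same held for Fas and the dim Casp6 probe set, both within background. Such a fall lay outside the intervals of Casp2, Casp8, Tnfrsf1a and the other probe sets of Casp9 and Fadd. A rise of that size lay inside the intervals of 1457816_at of Casp9 and 1416888_at of Fadd.

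The rest of the pathway was read from 50 other genes; Ripk1 and Tnfsf12, also on the list, were not analysed here. With 1 probe set per gene 6 of the 50 passed, or 12%, beside 11.8% of all genes. Of these 1 was higher and 5 were lower with the shRNA (4 higher and 2 lower with the probe sets of each gene averaged), and at large 6.37% of genes were called higher and 5.39% lower. The median log2 change was -0.02, against -0.01 over all genes. The list was drawn up with earlier results of these data known.

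**Figure D3:**
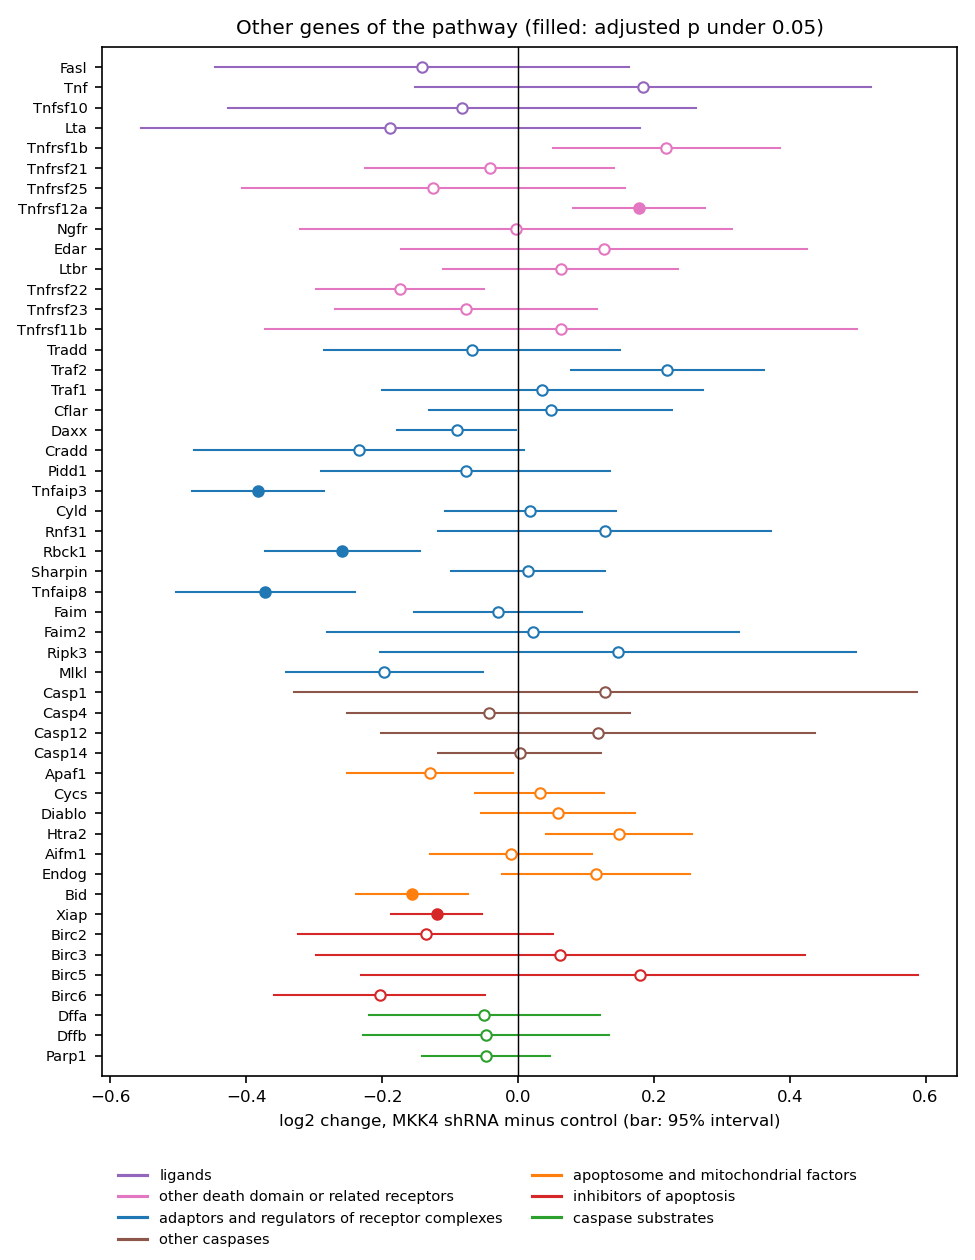
Log2 change of the 50 other pathway genes (horizontal axis, MKK4 shRNA minus control, of intensity plus 16), 1 probe set per gene, coloured by role, with 95% intervals as bars. Filled points mark the 6 genes that passed an adjusted p of 0.05: Tnfrsf12a at 0.18, and Tnfaip3, Rbck1, Tnfaip8, Bid and Xiap below 0.

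Among regulators of receptor complexes, read by the brightest probe set of each, 3 of 17 genes were lower and 0 higher by limma. At an unadjusted p under 0.05 there were 5 lower and 1 higher, the TNF receptor adaptor gene Traf2 (log2 change 0.22, adjusted p = 0.0577), where all genes gave 11.6% lower and 12.5% higher. Tnfaip3 encodes A20, a ubiquitin-editing enzyme that restrains signalling from TNF receptors. It read 956, 958 and 919 units with the control vector and 683, 739.69 and 764 with the shRNA, so that the highest shRNA array lay well below the lowest control. The log2 change was -0.38 (SE 0.0421, limma adjusted p = 0.00124), called in all 16 other settings. With its probe sets averaged it was -0.17 (0.0435), since its second probe set, 1450829_at, went from 265 ± 13.3 to 275 ± 2.22 units (SD, n = 3), and its log2 change was 0.04.

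Traf1, a TNF receptor adaptor gene that is not among these calls, had the largest change of any called probe set of the 50 genes, on the dimmer of its 2. On 1423602_at the control arrays read 34.2, 33.2 and 37.7 units and the shRNA arrays 73.0, 112 and 133. All 3 controls lay within background and all 3 shRNA arrays above it. The geometric mean of the shRNA arrays was 2.6-fold the 39.47 units of trpnX, a ratio that leaves out the spread among the 3 arrays. The fitted log2 change was 1.22 (SE 0.195, interval 0.76 to 1.68, limma adjusted p = 0.0123 over probe sets), called in 9 of 13 other settings. The call was lost without control replicate 1 (0.0573), 2 (0.0681) or 3 (0.0533) or shRNA replicate 2 (0.0744). The brighter probe set, 1445452_at, stands for the gene in the counts above. It averaged 147 ± 4.04 units on control arrays and 153 ± 20.5 on shRNA arrays (SD, n = 3). Its log2 change was 0.04 (limma adjusted p = 0.885 over genes), so the 2 probe sets disagree. Of all 104 probe sets of the 50 genes, 6 passed (5.77%, beside 6.37% of all probe sets), 2 higher and 4 lower. The other higher one reads Htra2, a mitochondrial protease gene, on 1436269_s_at (log2 change 0.22, adjusted p = 0.0366; 0.142 without the trend), whose suffix marks probes that can match other genes, and its brighter probe set gave 0.15 (0.0854 over genes).

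Tnfaip8, a TNF-induced gene, and Rbck1, which encodes a subunit of the linear ubiquitin ligase complex, were the other 2 regulators called. Tnfaip8 averaged 762 ± 52.7 units on control arrays and 594 ± 38.4 on shRNA arrays (SD, n = 3). Its log2 change was -0.37 (limma adjusted p = 0.00511), called in 15 of 16 settings and not with its probe sets averaged (-0.24, adjusted p = 0.142). Rbck1 averaged 1086 ± 41.1 and 908 ± 39.6 units (SD, n = 3), and its log2 change was -0.26 (0.0132), called in 11 of 16; the call was lost when control replicate 2 (0.0578), shRNA replicate 2 (0.056) or shRNA replicate 3 (0.0633) was left out. After centring on chromosome medians it was -0.18 (0.0499). Its partners in that complex, Rnf31 (0.13, adjusted p = 0.544) and Sharpin (0.02, 0.901), did not pass.

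The 3 remaining calls were small. Bid, a BH3-only gene whose product caspase-8 cleaves to reach the mitochondrion, gave a log2 change of -0.16 (limma adjusted p = 0.0272), and Xiap, an inhibitor of caspases, -0.12 (0.0347). Tnfrsf12a, the receptor of TWEAK, gave 0.18 (0.0318), with 0.17 on its other probe set. Each was lost in most settings: Bid was called in 5 of 16, Xiap in 5 and Tnfrsf12a in 7. Of the 6 fits without 1 array, Bid held without control replicate 3 (0.0458) and Xiap and Tnfrsf12a held in none, with adjusted p of 0.0504 to 0.0975 for the others of Bid, 0.0686 to 0.0968 for Xiap and 0.051 to 0.109 for Tnfrsf12a. The other 6 Xiap probe sets gave log2 changes from -0.21 to 0.19, and their mean with the first was 0.0045.

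Ligands, other caspases and substrates gave 0 calls among 4, 4 and 3 measured genes by limma, and 0 at an unadjusted p under 0.05, which 24.1% of all genes reached. The TNF gene lay at 9.76 units or less, within background, and Fasl between 28.3 and 43.5 units, on both sides of that level. The other Fasl probe set, 1418803_a_at, read 3.1 units or less. Tnfsf10, the TRAIL gene, lay between 83 and 120.2 units on its brightest probe set, 1459913_at, with a log2 change of -0.08 (adjusted p = 0.809), but within background on the other 2, at 2.26 units or less on 1420412_at and 5.81 or less on 1439680_at, so its level is uncertain. Casp1, Casp4 and Casp12 stayed within background on every array, at 20.6 units or less, and Casp14, at 1203 ± 74.0 and 1215 ± 32.2 units (SD, n = 3), was read by a probe set whose suffix marks probes that can match other genes. The other Casp14 probe set, 1418748_at, read 12.0 to 19.2 units, within background, so the level of Casp14 is uncertain. Apaf1, the scaffold of the apoptosome, averaged 458 ± 21.2 and 422 ± 23.2 units (SD, n = 3), with a log2 change of -0.13 (adjusted p = 0.178), and Cflar, the catalytically inactive relative of caspase-8, gave 0.05 (0.779).

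Genes whose values ran most like those of Casp6 over the 6 arrays were Als2cl (Pearson r = 0.997), Rc3h2 (0.997) and Kdm3b (0.996), taken from 9095 genes brighter than the median gene. All 3 were also lower with the shRNA, with log2 changes of -0.31, -0.37 and -0.21. They were picked for this likeness over 6 arrays in 2 groups, so the correlations are a description.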

How the data were processed

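Per the labels' protocols, biotin-labelled RNA of 6 samples was measured on Affymetrix arrays of 1 colour. The values the authors deposited are linear intensities, 1 per probe set; how probes were summarised, corrected for background and normalized is not given in the sources used here. Array medians were nearly but not exactly equal. A pseudocount of 16 was added, log2 was taken, and arrays were quantile-normalized (limma 3.58.1, R 4.3.3). The 64 control probe sets were left out. The groups were set against each other with limma's lmFit and eBayes (with trend), with group as the only term and Benjamini-Hochberg adjustment at 0.05, over all 45037 probe sets and over 18193 genes, each by its brightest probe set over the 6 arrays. Means and SDs are of deposited values. The number of arrays limits the precision. The fits were tested on simulated data. Named genes were Map2k4, the members, called genes of the pathway list with Apaf1, Cflar, Ripk1, Tnf, Fasl, Tnfsf10 and Xiap, and the 3 genes most correlated with the member of lowest adjusted p; Rnf31, Sharpin, Traf1, Traf2, Htra2 and the other caspases were named after their values were seen. Members and lists were chosen with earlier results of these data known. Promoters come from RefSeq (GRCm38.p6). Alternatives were other normalizations, pseudocounts of 1 and 64, leaving out probe sets or genes dimmer than the median, no trend, chromosome centring, a replicate block, other rules for probe sets, and each array left out in turn; those for Traf1 and Htra2 were added after seeing the data.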

Additional observations from a re-analysis of the deposited data

How the results depend on the processing

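The fall of Map2k4 was called in all 16 other settings, with log2 changes of -1.28 to -1.09. The 1 member probe set called, of Casp6, became 0 with the values as deposited, with centred array medians, without the trend and with the replicate block, and 0 to 1 with each array left out in turn. The 1 member gene called became 0 with the values as deposited, with centred medians, with the replicate block and with the probe sets of a gene averaged, and 0 to 1 with each array left out. The 6 calls among other pathway genes became 3 as deposited, 3 with centred medians, 11 of 32 without the dimmer genes, 2 without the trend and 3 with the replicate block, and 2 to 4 with each array left out. Same-numbered arrays of the groups did not vary together (r = -0.08, -0.01 and -0.28), so the labels' numbers give no sign of pairing; under the block the Casp6 probe set had an adjusted p of 0.107 at the same log2 change. Over all probe sets the calls were 1610 higher and 1258 lower as reported, and 1229 and 613 as deposited, 613 and 328 without the trend and 701 and 438 with the block.

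The fall of Xiap, called as reported at -0.12, turned to 0.0045 and lost its call with its probe sets averaged. Some uncalled changes near 0 also changed sign. Casp8 gave 0.0049 as deposited and 0.0006 with centred medians. Casp2 gave 0.0017 by probe set and 0.0054 by gene after chromosome centring. Tnfrsf10b gave 0.025 when probe sets were left out whose suffix marks probes that can match several transcripts or other genes. With each array left out in turn, Casp2 ran from -0.041 to 0.0041, Casp8 from -0.054 to 0.047, Casp9 from -0.014 to 0.087 on 1437537_at and from -0.19 to 0.018 on 1426125_a_at, and the dim Casp6 probe set from -0.16 to 0.064. Tnfrsf1a ran from -0.030 to 0.029, Tnfrsf10b from -0.15 to 0.088 on 1422344_s_at and from -0.088 to 0.12 on 1421296_at, and Fadd from -0.11 to 0.048 on 1446499_at. None of these member changes passed in any setting run. Settings numbered 16 for genes and 14 for probe sets, fewer where a dim one dropped out. The causes were not tested. Fas and the dim Casp6 probe set lay within background, and the residual SD of the Tnfrsf10b probe sets was 0.175 and 0.183.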
